A study of Rattus norvegicus with 6 samples.

Results

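miR-210 is the microRNA (miRNA) best known for its response to low oxygen, and both strands of its hairpin, rno-miR-210-3p and rno-miR-210-5p, were followed through 6 small RNA libraries of rat lung. They were chosen by name, as 2 of the 693 miRNAs in the deposited table. The study compared lungs after ischemia reperfusion (IR) with lungs after a sham operation, in Sprague-Dawley rats that were male and between 7 and 8 weeks old, with 3 libraries per group. In IR the left hilum was clamped for 45 min under anesthesia and ventilation and blood flow was then restored, for a time that the sources used here do not give. Sham rats, which the sample labels call control, had the same chest opening with no clamp. The study describes the samples of a group as biological replicates. The labels do not say that they came from separate animals, so the p-values measure the spread between these samples. The sham libraries held 7459979 to 10718899 reads and the IR libraries 3775663 to 11248166.

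In cells short of oxygen the transcription factor HIF escapes degradation and switches on the miR-210 gene, and the 3p strand then enters the silencing complex and lowers messages for mitochondrial iron-sulfur proteins and for other targets. The 5p strand comes from the opposite side of the same hairpin and is mostly discarded. Reperfusion brings blood flow back. Neither oxygen nor HIF was measured in these data, and the rats were ventilated, so how far oxygen fell in the sequenced tissue is not known. The study's methods do not say which lung that tissue came from.

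The mature strands and the hairpin are shown because the seed decides which messages a miRNA can pair with and because the counts of miR-210 turn on its sequence. Both names matched RefSeq (build GRCr8), which places the hairpin at chr1:205755923-205756032 on the minus strand. The sources used here do not give the authors' build, and the match was made by name. All sequences run 5′ to 3′. Capitals mark the seed, bases 2 to 8 of the mature strand, and in the hairpin they mark the 5p arm at positions 28 to 49 and the 3p arm at positions 66 to 87.
rno-miR-210-3p: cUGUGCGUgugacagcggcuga
rno-miR-210-5p: aGCCACUGcccacagcacacug
Mir210 hairpin: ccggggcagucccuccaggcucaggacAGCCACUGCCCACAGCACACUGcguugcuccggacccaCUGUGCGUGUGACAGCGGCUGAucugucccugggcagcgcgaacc
rno-miR-147: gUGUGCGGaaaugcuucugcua
rno-miR-3574: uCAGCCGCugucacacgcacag

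The gene Mir210 lies inside the span of a long noncoding RNA gene on the same strand, between the protein-coding genes Rassf7 and Phrf1. Whether it sits in an exon or an intron of that RNA is not given in the table used. The hairpin is 110 bases long and rich in G and C (68.2%). In the fold of lowest energy computed by RNAfold (-46.5 kcal/mol), 16 of the 22 bases of the 3p strand pair with the 5p strand, among them 6 of the 7 seed bases. Among 693 distinct rat mature names in RefSeq, 0 others carry the seed of the 3p strand over bases 2 to 8, and 0 others carry that of the 5p strand. Over the shorter window of bases 2 to 7, 1 other miRNA has the letters of the 3p strand, rno-miR-147, a miRNA that macrophages make on inflammatory stimulation.

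The reads of rno-miR-210-3p are also listed under a second name. rno-miR-3574 is annotated on the plus strand of the same 22 bases, and its mature sequence is the exact reverse complement of rno-miR-210-3p. Over the 6 libraries rno-miR-210-3p had 3466 reads and rno-miR-3574 had 3461, and in no library did the counts differ by more than 2 reads. Reads from the strand of rno-miR-210-3p and from the opposite strand thus cannot be told apart in these counts. The table lists 42 pairs of miRNAs annotated on opposite strands with at least 15 bases of overlap. In 29 of the 42, the counts of the pair differed in every library by at most 5% or 2 reads, and this held for all 8 pairs that are exact reverse complements of each other.

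**Figure D1:**
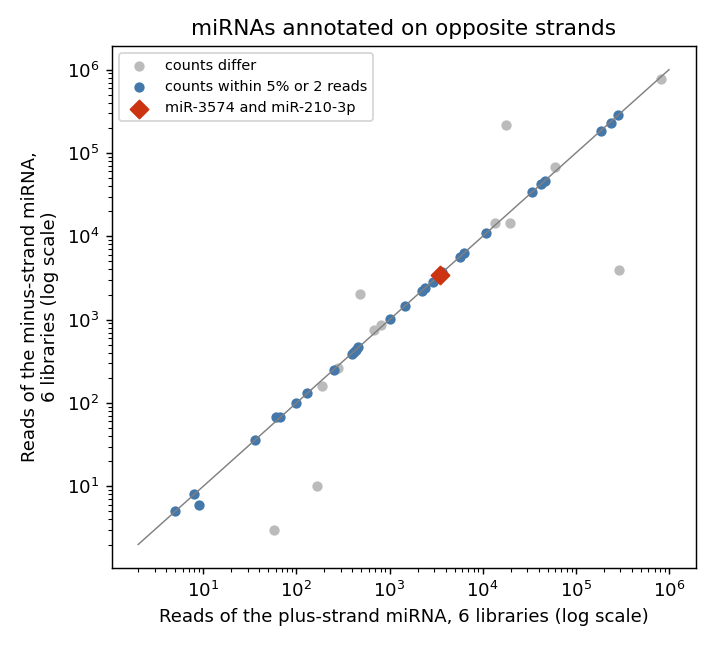
Reads summed over the 6 libraries for each of the 42 pairs of miRNAs annotated on opposite strands, with the plus-strand member on the horizontal axis and the minus-strand member on the vertical axis, both on log scales. The red diamond, miR-3574 with 3461 reads and miR-210-3p with 3466, lies on the grey line of equal counts, as do the blue pairs, whose counts differ in every library by at most 5% or 2 reads.

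The level of rno-miR-210-3p differed between the IR and the sham lungs by less than the spread between libraries. The deposited TPM values, which scale the listed reads of a library to a sum of 1000000 and take no account of length, were 63.3, 83.3 and 60.2 in sham replicates 1, 2 and 3. In IR replicates 1, 2 and 3 they were 75.9, 61.7 and 68.5. The IR libraries thus all fell within the range of the sham libraries, and sham replicate 2 was the highest of the 6. The means were 68.9 ± 12.6 TPM in sham and 68.7 ± 7.08 in IR (SD, n = 3 each). After TMM normalization, which scales the libraries on the bulk of the miRNAs, they were 69.4 ± 9.85 and 67.8 ± 3.83 normalized counts per 1000000 reads (CPM; SD, n = 3 each). The reads behind these values were 472, 893 and 620 in sham and 478, 233 and 770 in IR. The coefficient of variation between libraries was 18.2% of the TPM in sham and 10.3% in IR, against 4.02% and 5.06% for counting error alone.

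The log2 fold change of rno-miR-210-3p, IR against sham, was -0.033 with a standard error of 0.18 (edgeR's quasi-likelihood test over 418 miRNAs, adjusted p = 0.936). Its 95% interval ran from -0.45 to 0.38, which is 0.733 to 1.30 times the sham level. A doubling or a halving of rno-miR-210-3p thus lies outside the interval, and changes of up to about 1.30-fold upward or 0.733 times the sham level downward lie inside it. Only 26 of the 418 tested miRNAs, its second name rno-miR-3574 among them, had a smaller estimated change. In the same fit 44 miRNAs passed an adjusted p of 0.05 (10.5%), while of the miR-210 strands 1 was tested and 0 were called. Counts and shares over all miRNAs, here and below, include both names of pairs that share their reads. At an unadjusted p under 0.05, which 26.3% of the miRNAs passed with edgeR and 18.2% of 693 with DESeq2, rno-miR-210-3p was not called by either tool, and DESeq2's adjusted p for rno-miR-210-3p was 0.919. An exact permutation test of the log2 CPM gave p = 0.9 (two-sided), where 3 against 3 libraries cannot go below 0.1. Over all 17 settings and left-out libraries, the lowest lower limit of the interval was 0.625 times the sham level and the highest upper limit was 1.47 times.

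**Figure D2:**
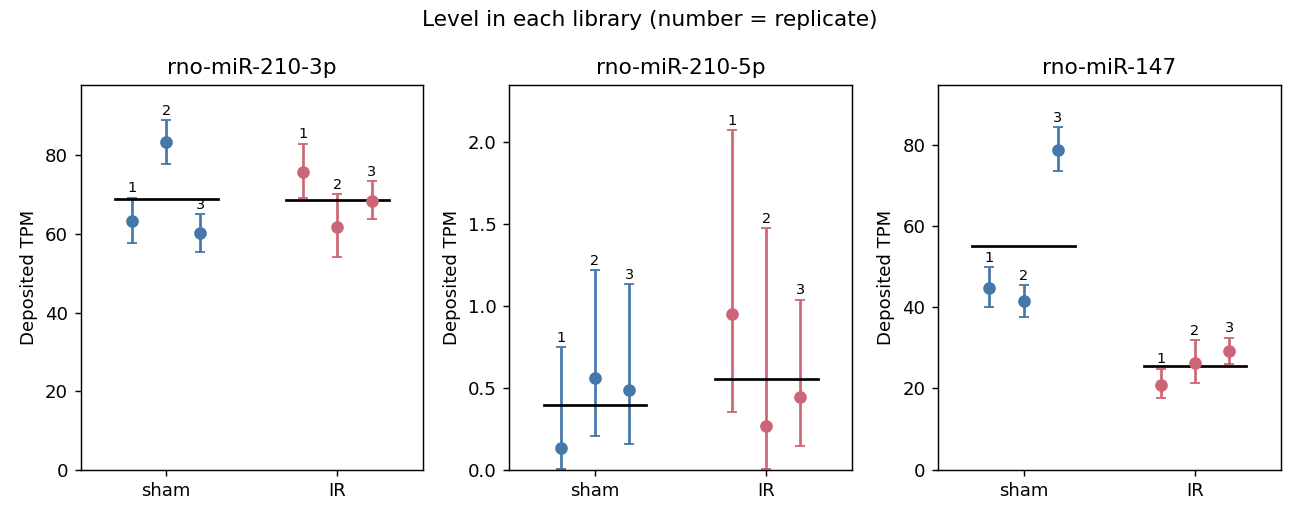
Deposited TPM (vertical axes, each from 0) of rno-miR-210-3p, rno-miR-210-5p and rno-miR-147 in each sham (blue) and IR (red) library, numbered by replicate. Bars are 95% exact Poisson intervals of the reads, black lines are group means, and the groups overlap for both strands of miR-210 but not for rno-miR-147, whose IR libraries lie at 20.9 to 29.2 and whose sham libraries lie at 41.4 to 78.7.

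**Figure D3:**
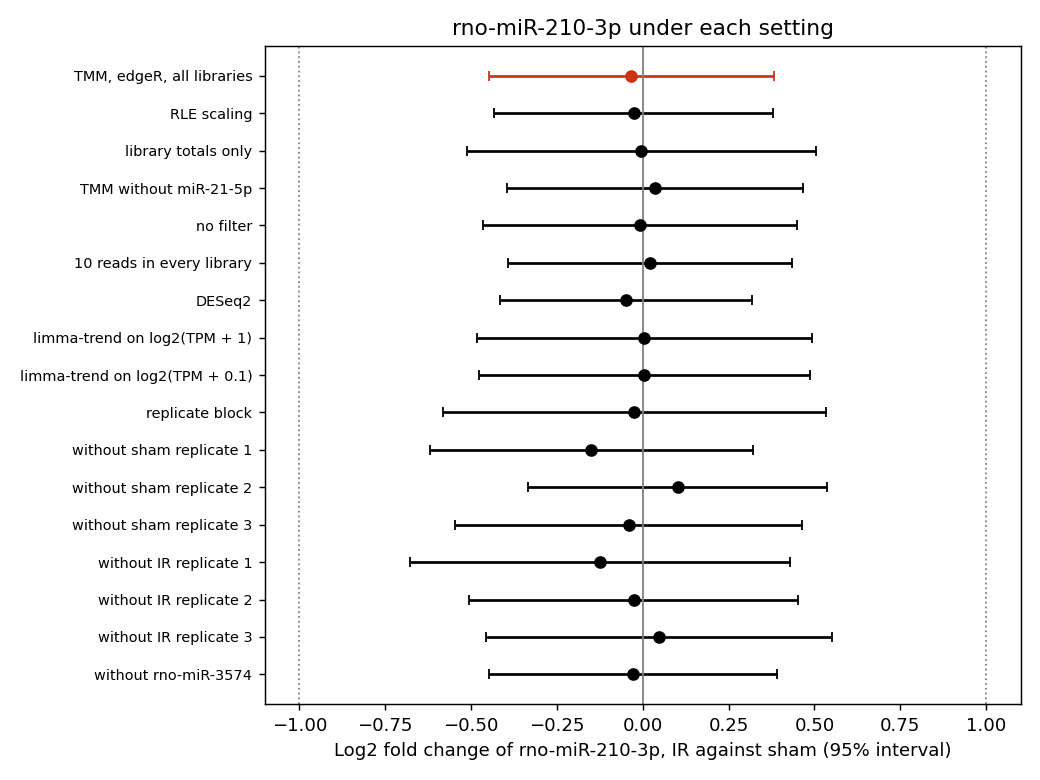
Log2 fold change of rno-miR-210-3p, IR against sham, with its 95% interval (horizontal axis) under each of the 17 settings. The red point at the top is the value of -0.033 given in the text, and the estimates lie between -0.15 and 0.10, with every interval crossing 0 and lying inside the dotted lines at -1 and 1.

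The 5p strand was rare in all libraries. rno-miR-210-5p had 1, 6 and 5 reads in sham replicates 1, 2 and 3, and 6, 1 and 5 reads in IR replicates 1, 2 and 3. The groups overlap, and each held 12 reads. In TPM this was 0.393 ± 0.227 in sham and 0.554 ± 0.357 in IR (SD, n = 3 each), near the 0.267 to 0.795 TPM that 3 reads make up in a library. rno-miR-210-5p had too few reads for the test over 418 miRNAs. The ratio of its summed reads, IR to sham, was 1.28 after TMM scaling, with a 95% exact (Clopper-Pearson) interval of 0.526 to 3.11. This interval pools the reads of a group and leaves out the spread between libraries. With no filter, edgeR put the log2 fold change at 0.43, with a 95% interval of -1.30 to 2.16. DESeq2 put it at 0.41, with an interval of -1.83 to 2.65. Changes inside these intervals cannot be told from no change at this depth.

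The share of the 5p strand among the reads of both strands needs no scaling between libraries. It was 0.211%, 0.667% and 0.800% in sham replicates 1, 2 and 3, and 1.24%, 0.427% and 0.645% in IR replicates 1, 2 and 3. The groups overlap, with means of 0.560% ± 0.309 in sham and 0.771% ± 0.420 in IR (SD, n = 3 each; exact permutation test, two-sided, p = 0.6). IR replicate 1 alone set the direction of this difference, which was -0.023 percentage points without it and 0.211 with it. Over all 6 libraries the 5p strand took 24 of 3490 reads, or 0.688% (95% exact binomial interval 0.441% to 1.02%). The intervals cover counting error only, because reads amplified by PCR and without molecular identifiers are not independent molecules. Among 143 hairpin names with both strands listed and at least 1000 reads, the rarer strand took a median of 1.41% of the reads, and 57 of the 143 had a smaller share than miR-210.

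**Figure D4:**
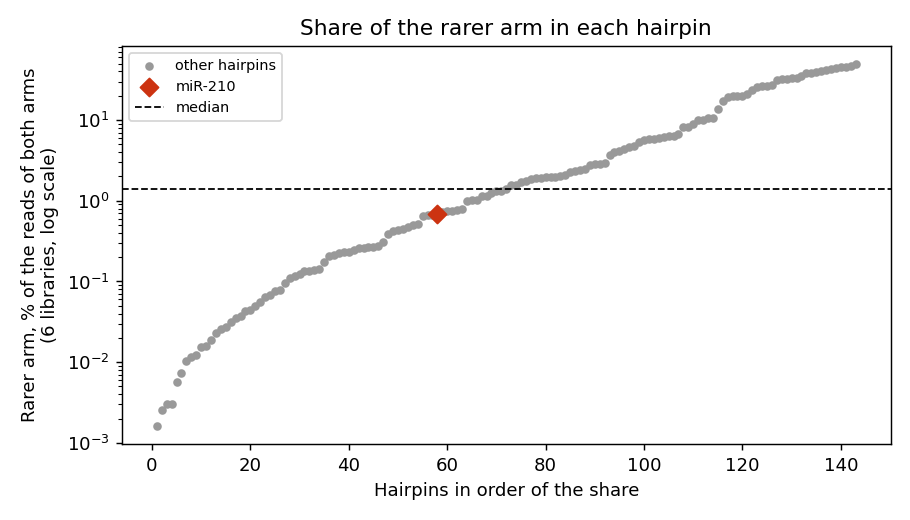
Share of the rarer strand among the reads of both strands (vertical axis, log scale, reads summed over the 6 libraries) for 143 hairpin names with at least 1000 reads, in ascending order (horizontal axis). miR-210, the red diamond at 0.688%, lies in position 58 and below the dashed median of 1.41%.

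In the order of mean TPM, rno-miR-210-3p held position 182 of 693 and rno-miR-210-5p position 479. The next miRNAs above rno-miR-210-3p were miR-204-5p (69.4 TPM) and miR-98-5p (70.8 TPM), and the next below were its own second name rno-miR-3574 and miR-181c-5p (68.2 TPM). These means differ from that of rno-miR-210-3p by less than its SD of 9.12 TPM over the 6 libraries, so its place in the order is only approximate. Beside rno-miR-210-5p lay 2 miRNAs above it, a predicted one at 0.480 TPM and miR-1247-3p at 0.491 TPM, and below it miR-204-3p and miR-497-3p, at 0.472 and 0.469 TPM. These 4 means differ from its own mean of 0.473 TPM by less than its SD of 0.282 over the 6 libraries.

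The pattern over the 6 libraries was compared between rno-miR-210-3p and each of the other 417 tested miRNAs, by the root mean square difference of their centred log2 CPM. The nearest was rno-miR-3574 at 0.0013, which shares its reads. The next were miR-1839-5p (0.075), miR-1b (0.094), miR-26a-5p (0.099) and miR-101b-3p (0.113), against a median of 0.328 over all 417. All 4 had log2 fold changes close to 0, from -0.064 for miR-1b to 0.038 for miR-1839-5p. That closeness and the distances below the median follow from picking the nearest patterns over the same libraries. Like rno-miR-210-3p, miR-1839-5p was lowest in sham replicate 1, at 129.7 normalized CPM, where rno-miR-210-3p was at 59.5.

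rno-miR-147, the miRNA that shares bases 2 to 7 of the seed, was lower in every IR library than in every sham library. Of all 418 tested miRNAs, 16.7% lay below sham in this way. Its TPM values were 44.8, 41.4 and 78.7 in sham replicates 1, 2 and 3 and 20.9, 26.2 and 29.2 in IR replicates 1, 2 and 3. Its log2 fold change was -1.19 (standard error 0.35), and it did not pass the test (edgeR's quasi-likelihood test, adjusted p = 0.0731). With library totals as the only scaling the adjusted p was 0.0468 from edgeR, and with DESeq2 it was 0.0117. Over the 16 alternatives it ran from 0.0117 to 0.175 and was under 0.05 in 7. Without sham replicate 3, the library with the most rno-miR-147, the log2 fold change was -0.70 (adjusted p = 0.149 from edgeR). In that library miR-21-5p, an abundant miRNA of injured tissue, took 24.2% of the reads, against 9.66% to 13.5% in the other 5. With TMM factors computed without miR-21-5p, the log2 fold change of rno-miR-147 was -1.10 (adjusted p = 0.0882 from edgeR). Whether the share of miR-21-5p bears on rno-miR-147 in other ways was not tested. miR-147 was picked out for its seed when the sequences and its values were already known.

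Set against each other within a library, rno-miR-147 had 70.8, 49.7 and 131 reads per 100 reads of rno-miR-210-3p in sham replicates 1, 2 and 3. In IR replicates 1, 2 and 3 it had 27.6, 42.5 and 42.6. The IR ratios all lay below the sham ratios, with a difference of -1.07 in mean log2 ratio (exact permutation test, two-sided, p = 0.1, the smallest p that 3 against 3 can give). Without sham replicate 3 the difference was -0.69. The summed level of the miRNAs with this 6-base seed was 127 ± 30.2 normalized CPM in sham and 93.1 ± 1.37 in IR (SD, n = 3 each), of which rno-miR-210-3p gave 69.4 and 67.8. The sham sums were 102, 119 and 160 in replicates 1, 2 and 3, so replicate 3 stood highest here as well.

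Of the other miRNAs linked to hypoxia, 0 passed the test as higher after IR, where 33 of all 418 tested miRNAs did. Those 33 include both names of pairs with nearly equal counts. These are miR-1-3p with miR-3571, miR-369-5p with miR-3578, miR-382-3p with miR-3592 and miR-409a-3p with miR-409b. The 33 thus overstate how many distinct miRNAs were called higher. The list of 16 miRNAs that hypoxic cells are known to induce had 0 higher and 1 lower of 16 tested, where 2.63% of all 418 tested miRNAs were lower. At an unadjusted p under 0.05, 0 were higher and 6 lower with edgeR and likewise 0 and 6 with DESeq2. Over all miRNAs, 12.2% were lower with edgeR and 8.23% with DESeq2, and 59 of 418 and 69 of 693 were higher. At an adjusted p under 0.05 DESeq2 had 0 higher and 3 lower, where 5.15% of the 505 miRNAs it gave an adjusted p were lower. Of those 505, 43 were higher. The called member was miR-23a-3p, from a cluster that also makes miR-27a and miR-24, with a log2 fold change of -0.59 (adjusted p = 0.0494 from edgeR). That call was lost in 15 of the 16 alternatives, with adjusted p from 0.0512, where rno-miR-3574 was left out of the table, to 0.178, and was kept with DESeq2 at 0.0212. The median log2 fold change of the list was -0.30, against -0.0088 over all 418. In 6 of the 16 the IR libraries all lay below the sham libraries, and in 0 above. Of the 418 tested miRNAs 34.0% did not overlap, 16.7% lay below and 72 lay above.
miR-26a-5p and miR-322-5p, the rat counterpart of the endothelial hypoxia miRNA miR-424, were at -0.035 and -0.047. miR-107-3p, which like miR-103-3p acts on metabolism, was at -0.33 and miR-103-3p at 0.089. miR-155-5p, a miRNA of activated leukocytes, was at 0.24, and miR-21-5p was at -0.69 with sham values that reached 24.2% of a library. miR-23b-3p and miR-181a-5p, a regulator of T cell signalling, were at -0.70 and -0.54. None of these 8 passed edgeR's test, nor did the remaining 7, at -0.75 for miR-181c-5p to 0.098 for miR-24-3p. DESeq2 called miR-23b-3p and miR-181a-1-3p beside miR-23a-3p (adjusted p = 0.0212, 0.0470 and 0.0212 in that order), all lower.

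The list of 9 miRNAs known to act on HIF or on its degradation had 0 higher and 2 lower of 9 tested by edgeR. Of all 418 tested miRNAs, 2.63% were lower and 33 were higher. At an unadjusted p under 0.05, 0 were higher and 6 lower with edgeR and with DESeq2 alike, against 12.2% and 8.23% lower over all miRNAs. Those higher over all miRNAs were 59 of 418 with edgeR and 69 of 693 with DESeq2. At an adjusted p DESeq2 had 0 higher and 3 lower, the third being miR-20b-5p, against 5.15% lower and 43 of 505 higher over all miRNAs. The lower ones were miR-18a-5p and miR-92a-3p, which are made from 1 transcript with miR-17-5p, with log2 fold changes of -1.54 and -0.73 (adjusted p = 0.0229 and 0.0203 from edgeR). miR-17-5p, miR-20a-5p and miR-20b-5p, of related sequence, were at -0.72, -0.73 and -1.48 without passing edgeR's test. miR-199a-5p, which acts on the HIF message itself, was at -0.42, and miR-138-5p, miR-145-5p and miR-429 were at 0.15, 0.037 and 0.12. Of the 9, 4 lay below sham in every IR library and 0 above, where 16.7% of the tested miRNAs lay below and 72 of 418 above. Leaving out IR replicate 1 or IR replicate 3 brought the number called by edgeR to 0, and leaving out sham replicate 3 brought it to 1. The median log2 fold change of the 9 was -0.72.

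**Figure D5:**
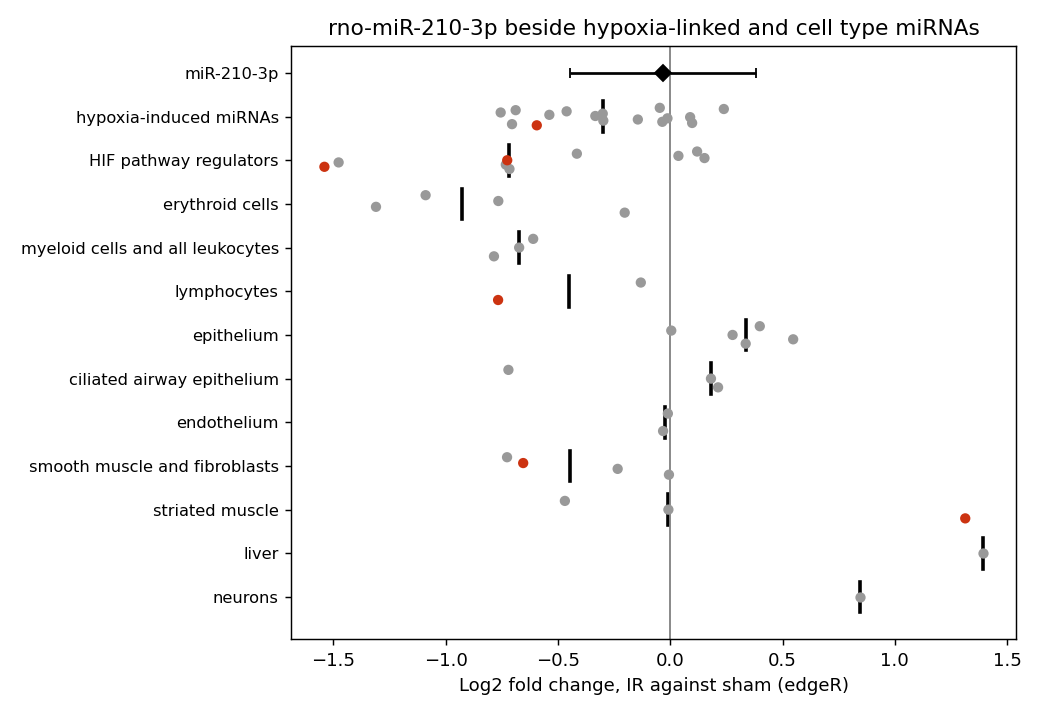
Log2 fold change, IR against sham (horizontal axis), of rno-miR-210-3p (black diamond with its 95% interval) and of the tested miRNAs of 12 lists, 1 point each. miRNAs called by edgeR are red, the others are grey, and black bars are list medians, at -0.30 for the hypoxia-induced list and -0.72 for the HIF pathway list against -0.033 for rno-miR-210-3p.

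In a whole lung, fewer cells of a type and less miRNA per cell cannot be told apart, so rno-miR-210-3p was also set beside the miRNAs of each cell type. The smooth muscle miR-143-3p and the endothelial miR-126a-3p were abundant, at 144869 ± 16065 and 92138 ± 11728 normalized CPM in sham (SD, n = 3). The neuronal miR-124-3p and the liver miR-122-5p were near 0, at 0.397 ± 0.239 and 2.62 ± 3.45 normalized CPM in sham (SD, n = 3). The other miRNA of the neuron list, miR-9a-5p, was not, at 38.8 ± 11.8 in sham and 70.6 ± 62.4 in IR (SD, n = 3 each). The summed level of that list is thus almost wholly miR-9a-5p. For 7 of 10 cell type lists, the ratio of rno-miR-210-3p to the summed level of the list overlapped between the groups. Of all 418 tested miRNAs, taken singly, 34.0% did not overlap, and edgeR called 10.5%.
Against the 2 endothelial miRNAs, rno-miR-210-3p stood at 0.624 to 0.843 per 1000 in the sham libraries and 0.616 to 0.868 in the IR libraries. Against the 4 erythroid miRNAs, which include miR-451-5p, it stood at 17.2 to 48.2 per 1000 in sham and 30.8 to 44.7 in IR. The log2 fold change of miR-451-5p, the most abundant of the 4, was -0.20. miR-144-3p, miR-144-5p and miR-486 were at -1.31, -0.77 and -1.09. Of the 4, edgeR and DESeq2 each called 0, and the groups overlapped for each. The other 5 lists with overlapping ratios were those of neurons, liver, striated muscle, ciliated airway epithelium, and smooth muscle with fibroblasts. Of the 3 striated muscle miRNAs, miR-1-3p was higher after IR with a log2 fold change of 1.31 (adjusted p = 0.0138 from edgeR), while miR-133a-3p, at -0.0081, and miR-206-3p, at -0.47, did not pass. Of the 4 miRNAs of smooth muscle and fibroblasts, miR-199a-3p was lower with -0.65 (adjusted p = 0.0229 from edgeR) and the other 3 did not pass. Of those, miR-214-3p was at -0.73 (adjusted p = 0.0565 from edgeR). DESeq2 called 2 of the 4, as lower, against 5.15% of 505 over all miRNAs. miR-199a-3p and miR-214-3p lay below sham in every IR library, as did 16.7% of all 418, while miR-143-3p and miR-145-3p overlapped. The summed level of the 4, at 129004 to 160351 normalized CPM in sham, was mostly miR-143-3p.
The ratio did not overlap for 3 lists, and the summed level of the same 3 lists did not overlap either. Against the 5 epithelial miRNAs, 4 of the miR-200 family and miR-375-3p, rno-miR-210-3p stood at 4.33 to 4.55 per 1000 in sham and 3.21 to 3.43 in IR. The summed level of these 5 was 13650 to 17393 normalized CPM in sham and 20121 to 21052 in IR. Of the 5, edgeR called 0 and DESeq2 called 1, as higher. Only miR-200a-3p and miR-200b-3p lay above sham in every IR library, while miR-200c-3p, miR-141-3p and miR-375-3p overlapped. Against the 3 miRNAs of myeloid cells and all leukocytes, it stood at 25.1 to 35.5 per 1000 in sham and 42.04 to 56.9 in IR. The summed level of these 3, miR-223-3p, miR-142-3p and miR-142-5p, was 1678 to 2764 normalized CPM in sham and 1267 to 1543 in IR. Of the 3, edgeR called 0 and DESeq2 called 1, as lower. Only miR-142-3p lay below sham in every IR library, while miR-223-3p and miR-142-5p overlapped. Against the 2 lymphocyte miRNAs it stood at 35.4 to 47.2 per 1000 in sham and 57.3 to 69.2 in IR. Of these 2, miR-150-5p was lower after IR with a log2 fold change of -0.77 (adjusted p = 0.0229 from edgeR). The other, miR-342-3p, was at -0.13 (adjusted p = 0.702 from edgeR) and its groups overlapped. In sham miR-150-5p made up 1455 and miR-342-3p 246 normalized CPM on average. Each of these 3 ratios gave p = 0.1 by an exact permutation test (two-sided, over 12 lists compared), the smallest that 3 against 3 allow, and 0 of them could reach 0.05. Whether a change in the cells of the lung bears on the level of rno-miR-210-3p was not tested.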

How the data were processed

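Total RNA of the lungs was made into adapter-ligated small RNA libraries (NEBNext) and sequenced. The authors deposited 1 table of whole read counts for 693 miRNAs, 630 named and 63 predicted, and the same counts as TPM, which were found to sum to 1000000 per library. The submitters' processing notes name Bowtie. The build, annotation, counter and strand setting do not appear in the sources used here. 0 value columns were left without a sample.

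Counts were filtered by filterByExpr (minimum count 10, total 15), scaled by TMM (factors 0.867 to 1.06) and tested with edgeR 4.0.16's quasi-likelihood test, IR against sham, with Benjamini-Hochberg adjustment, in R 4.3.3. Intervals of a log2 fold change used the degrees of freedom of the fit. Exact permutation tests used scipy 1.17.1. Centred log2 CPM used a pseudocount of 0.5. Alternatives used limma 3.58.1 and DESeq2 1.42.0. Folding used RNAfold 2.7.2.

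miR-210 and the lists were chosen with earlier results of these data known. The rule for named miRNAs was both strands, list members, neighbours in level, the nearest patterns and shared seeds (bases 2 to 8). miR-147, which shares bases 2 to 7, and the antisense rno-miR-3574 as a sequence pair were added after their values were seen, as was leaving rno-miR-3574 out. Replicate numbers did not pair the samples by the labels.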

Additional observations from a re-analysis of the deposited data

How the results depend on the processing

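rno-miR-210-3p was not called in any of the 16 alternatives. Its log2 fold change was below 0 in 10 and above 0 in 6, at 0.035 with TMM factors computed without miR-21-5p, 0.020 with 10 reads required in every library, and 0.0047 and 0.0049 with limma-trend on log2(TPM + 1) and log2(TPM + 0.1). With 1 library left out it ran from -0.15 to 0.10, and the difference in mean log2 CPM from -0.13 to 0.076. rno-miR-210-5p stayed within its spread in 11 of 11 alternatives, with log2 ratios of -0.13 to 0.70. For it the 10-read filter, limma-trend and the replicate block gave no value, because the filter removes it. The difference in the 5p share ran from -0.023 to 0.38 percentage points with 1 library left out.
The number of called miRNAs, 44, was 26 with 10 reads in every library, 69 with DESeq2 and 2 to 57 with 1 library left out, 2 of them without IR replicate 3. With the replicate block it was 0 (84 at an unadjusted p from edgeR). Same-numbered samples did not deviate together, with correlations of -0.38 to -0.17, so the numbers were not taken as pairs. Under the block rno-miR-210-3p was at -0.024. The hypoxia-induced list, with 1 called, had 3 with DESeq2 and 0 with RLE, library totals, TMM without miR-21-5p, no filter, the 10-read filter, both limma-trend fits, the block and rno-miR-3574 left out, and 0 to 2 with 1 library left out. The HIF list, with 2 called, had 4 with limma-trend on log2(TPM + 1), 0 under the block and 0 to 3 with 1 library left out. The causes were not tested. Depth limits rno-miR-210-5p, with 1 to 6 reads a library.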

Other observations

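rno-miR-210-3p is 1 of many miRNAs whose reads the table lists under 2 names. Among the 37 pairs annotated on opposite strands with at least 20 reads under each name, 26 had counts within 5% or 2 reads of each other in every library. They include let-7a-5p with miR-3596a (286593 and 286590 reads over the 6 libraries), miR-378a-3p with miR-3557-5p (184950 and 184954) and miR-1-3p with miR-3571 (1017 and 1016). The rule was not met by pairs such as miR-29a-3p with miR-3556a, which overlap by 18 bases and had 214240 and 17873 reads, or miR-126a-5p with miR-126b, which overlap by 17 bases and had 292420 and 3979 reads.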
